A study of Homo sapiens with 40 samples.

Results

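The S100 proteins are small calcium-binding proteins, each built from a pair of EF-hand motifs, and most of them act as dimers that change shape when calcium binds and then grip a partner protein. Expression of 7 of them, S100A4, S100A6, S100A8, S100A9, S100A10, S100A11 and S100A13, was followed across 10 diffuse large B-cell lymphoma lines treated with an EZH2 inhibitor. The genes were taken by name from 19775 genes that had a probe set annotated with a single gene symbol. They were chosen with earlier results of these data known. Where a gene had several such probe sets, the one brightest on average across the 40 arrays was used and the others served as a check. Testing required a signal above the array's own median on at least 2 arrays, which kept 15211 genes and 5 of the 7 S100 genes. S100A8 lay above the median on 1 array and S100A9 on 0 arrays, so neither was tested.

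This lymphoma is a fast-growing cancer of mature B cells, and all 10 are established human lines. Per the labels, 3 lines are EZH2 wild type (Toledo, OCI-LY-19 and HT) and 7 are EZH2 mutant (SU-DHL-4, SU-DHL-6, SU-DHL-10, DB, KARPAS-422, Pfeiffer and WSU-DLCL2). Which mutation each line carries was not analysed here. Every line received 500 nM GSK126 or the vehicle alone, both at 0.1% DMSO, for 72 h. Each line and treatment has 2 arrays. The labels give an average growth IC50, the concentration at the midpoint of growth inhibition by GSK126, which runs from 28 nM in Pfeiffer to 13786 nM in Toledo. Sample titles speak of biological replicates, but how separate the cultures were is not stated. The p-values within a line therefore measure only the spread between such arrays. Except where a line was fitted alone, this spread was estimated for each gene over all 20 groups of arrays together. With all arrays in the fit, a gene thus has the same standard error in every line. Each array reads the RNA of a whole culture, so a change in every cell and a change in the share of cells that use a gene cannot be told apart.

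EZH2 is the catalytic subunit of Polycomb repressive complex 2, which places a repressive methyl mark on histone H3, and GSK126 blocks that activity. In lymphoma the question behind such a comparison is which genes come up when the mark is lost, and whether mutant and wild type lines differ. Within the S100 family, S100A8 and S100A9 pair into calprotectin, an abundant protein of neutrophils and monocytes. S100A4 binds non-muscle myosin and is known from cell motility, S100A6 binds the calcyclin-binding protein, S100A10 joins annexin A2 in a membrane complex, S100A11 binds annexin A1, and S100A13 takes part in the release of growth factors that lack a signal peptide.

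The arrays were compared by replicate correlation and median signal, and RNA quality was not examined. Replicate arrays correlated at 0.982 to 0.989 over the genes tested, and the median signal of an array lay between 58.9 and 88.7 in the arbitrary units of the scanner scale. Of 7 genes that define B cells and had a probe set, 5 (CD79A, CD79B, PAX5, CD22 and PTPRC) were above the median on all 40 arrays and the other two, MS4A1 and BLK, on 36 each. With 2 arrays a group, the precision of each value is limited, and it also depends on the spread of the gene.

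The 7 genes lie on chromosome 1 in the order S100A10, S100A11, S100A9, S100A8, S100A6, S100A4 and S100A13. S100A10 and S100A11 are next to each other, 47 protein-coding genes separate S100A11 from S100A9, and 1 separates S100A6 from S100A4. The promoters of S100A6 and S100A4 are shown because these genes lie close together in the cluster and gave the highest correlation of response among the tested members. Both sequences are the 250 bases before the RefSeq start (GRCh38.p14), read 5′ to 3′ on the minus strand, and capitals mark each CG pair. They lie at chr1:153535992-153536241 for S100A6 and at chr1:153545807-153546056 for S100A4.
S100A6: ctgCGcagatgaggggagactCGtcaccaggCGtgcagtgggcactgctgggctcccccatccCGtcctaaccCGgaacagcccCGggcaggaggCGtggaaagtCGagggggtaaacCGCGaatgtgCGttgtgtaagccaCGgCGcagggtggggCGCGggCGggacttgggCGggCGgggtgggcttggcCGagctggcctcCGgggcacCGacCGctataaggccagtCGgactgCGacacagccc
S100A4: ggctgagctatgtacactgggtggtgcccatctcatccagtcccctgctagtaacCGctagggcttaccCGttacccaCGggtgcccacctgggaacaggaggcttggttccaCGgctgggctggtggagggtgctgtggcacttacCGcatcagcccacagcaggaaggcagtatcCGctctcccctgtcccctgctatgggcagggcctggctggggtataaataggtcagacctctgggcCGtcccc

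The S100A6 window held 24 CG pairs and the S100A4 window 7, against a median of 11 over 35116 windows of the same length. At least as many CG pairs were found in 23.7% of all windows for S100A6 and in 58.9% for S100A4. The GC box GGGCGG, searched on both strands, occurred 3 times before S100A6 and 0 times before S100A4, and 42.6% of all windows held it. A TATAAA motif, found in 10.7% of all windows on either strand, began 31 bases before the S100A4 start and was not found before S100A6. Among the windows of the other members, S100A10 had 24 CG pairs and S100A11 had 15. The 3 S100A13 windows had 15, 10 and 8, the single S100A9 window had 4 and each of the 3 S100A8 windows had 2. TATAAA also began 29 bases before the start in the S100A9 window and in window 2 of S100A8 and of S100A13. In window 3 of S100A8 it began 126 bases before. The AP-1 motif TGANTCA (either strand, 6.57% of all windows) occurred in none of the 11 windows of these 7 genes. A match or its absence describes these letters only.

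Across the 70 pairs of gene and line, 21 rose with GSK126, 0 fell, 29 were not called and 20 were not tested, the last being S100A8 and S100A9. With the other probe set of S100A6, S100A10 and S100A13 in place of the brightest, 10 pairs rose: S100A13 lost all 7 calls, S100A6 both and S100A10 2 of 3. The other sets of S100A6 and S100A10 lay above the array median on 0 and 4 of the 40 arrays. Their lost calls therefore cannot tell a missing rise from a set too dim to show it. The other S100A13 set was above the median on all 40. In the main fit no fall had an unadjusted p under 0.05 either. A call is an adjusted p under 0.05 in limma with Benjamini-Hochberg adjustment over all 15211 genes in that line. Over all genes tested, 7.55% of gene and line pairs rose and 5.13% fell. Because the members were chosen with earlier results known, the shares and medians of all genes stand beside them as a description only. All GSK126 arrays lay above all DMSO arrays in 28.6% of all pairs and below them in 22.2%. By line, the members that rose numbered 5 in KARPAS-422, 4 in WSU-DLCL2, 3 in Pfeiffer, 3 in SU-DHL-4, 2 each in SU-DHL-10 and SU-DHL-6, 1 each in HT and DB, and 0 in OCI-LY-19 and Toledo. The share of all genes that rose was 15.5% in KARPAS-422, 13.9% in WSU-DLCL2, 14.6% in Pfeiffer, 11% in SU-DHL-10, 2.14% in SU-DHL-4, 7.43% in SU-DHL-6, 6.31% in HT, 2.5% in DB, 1.97% in OCI-LY-19 and 0.138% in Toledo. The share of all genes that fell was 13.4% in KARPAS-422, 12.7% in WSU-DLCL2, 7.16% in SU-DHL-10, 9.93% in Pfeiffer, 3.56% in SU-DHL-6, 3% in HT, 0.618% in DB, 0.454% in SU-DHL-4, 0.44% in OCI-LY-19 and 0.0263% in Toledo. Taking all 7 members, their median log2 fold change was 0.87 in KARPAS-422 against 0.01 for all genes, 0.81 in WSU-DLCL2 against 0.07, and 0.63 in Pfeiffer against 0.07. In Toledo it was 0.20 against 0.02. Fold changes are on the scale log2(signal + 17.72), which understates the change of dim genes, and the value after ± is a standard error.

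**Figure D1:**
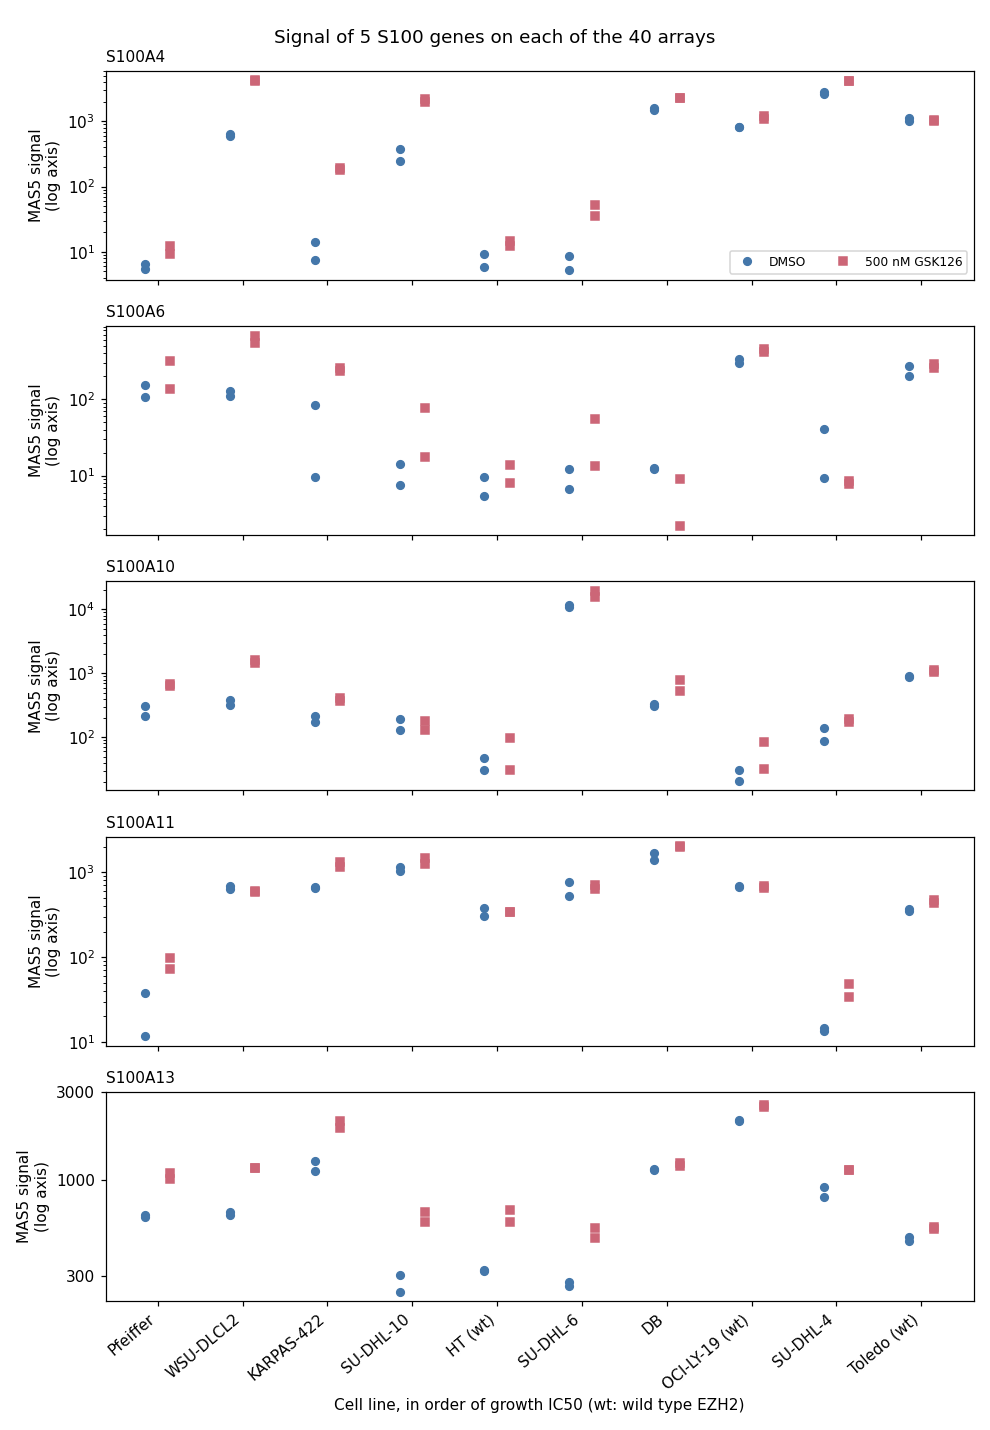
Signal of the 5 tested S100 genes on each of the 40 arrays (log axis, arbitrary units), by cell line in order of growth IC50. Circles are DMSO arrays and squares are arrays with 500 nM GSK126, 2 of each per line; S100A4 separates most in WSU-DLCL2, KARPAS-422 and SU-DHL-10, and S100A10 under DMSO is highest in SU-DHL-6.

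S100A4, the myosin-binding member, had the largest single change of the 5 tested members. In the main fit S100A4 rose in 6 lines, all of them with mutant EZH2, and on the offset scale moved most in 3 of these. WSU-DLCL2 read S100A4 at 639.9 and 606 under DMSO and at 4298 and 4254 under GSK126. The SU-DHL-10 arrays gave S100A4 signals of 249 and 384 for DMSO and 2022 and 2178 for GSK126. In KARPAS-422, S100A4 signals were 14.1 and 7.40 with DMSO and 192 and 177 with GSK126. In these 3 lines every treated array was far above every control array. The log2 fold change was 2.83 ± 0.16 in KARPAS-422, 2.75 ± 0.16 in WSU-DLCL2 and 2.69 ± 0.16 in SU-DHL-10, or 7.13, 6.71 and 6.47 times on the offset scale (limma adjusted p 2.50e-14, 2.70e-13 and 3.15e-13). The starting levels differed: the gene was already bright in WSU-DLCL2 and SU-DHL-10, while both control arrays of KARPAS-422 lay below the array median.

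Rises of S100A4 that were smaller on the offset scale were called in DB, SU-DHL-4 and SU-DHL-6. SU-DHL-6 read S100A4 at 8.60 and 5.19 under DMSO and at 52.2 and 35.5 under GSK126. Both DMSO signals were below the offset of 17.72, so the size of this change, and its rank among the lines, depends on the offset. The change there was 1.31 ± 0.16 (limma adjusted p 9.74e-07), with all 4 arrays below the array median, and it was not called when the line was fitted alone (limma adjusted p 0.102). SU-DHL-4 and DB began from the highest control levels of the 10 lines. The SU-DHL-4 arrays gave S100A4 signals of 2685 and 2821 for DMSO and 4131 and 4232 for GSK126. In DB, S100A4 signals were 1498 and 1605 with DMSO and 2261 and 2304 with GSK126. The treated arrays stood above the control arrays without overlap, by 0.60 ± 0.16 in SU-DHL-4 (limma adjusted p 0.0296) and 0.55 ± 0.16 in DB (limma adjusted p 0.0461). Both calls were lost when any 1 of the 4 arrays of the line was left out, with adjusted p from 0.140 to 0.207 in SU-DHL-4 and from 0.134 to 0.269 in DB. Both were also lost with a pseudocount of 1 and with arrays at equal medians. The DB call was lost too with quantile normalization (limma adjusted p 0.0585) and without the filter (limma adjusted p 0.0581).

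In the main fit S100A4 was not called in the other 4 lines. OCI-LY-19 read S100A4 at 818 and 827 under DMSO and at 1107 and 1221 under GSK126, a difference of 0.49 ± 0.16 (limma adjusted p 0.108). This rise was called with a pseudocount of 64 (0.47, limma adjusted p 0.0183) and with the line fitted alone (limma adjusted p 0.0474). The DB change minus that of OCI-LY-19 was 0.06 ± 0.22 (limma adjusted p 0.980). The Toledo arrays gave S100A4 signals of 1133 and 1034 for DMSO and 1005 and 1047 for GSK126, and the arrays overlapped (-0.08 ± 0.16). Pfeiffer, the line with the lowest IC50, and HT had the gene at the bottom of the scale. In Pfeiffer, S100A4 signals were 5.42 and 6.36 with DMSO and 12.3 and 9.11 with GSK126. HT read S100A4 at 9.28 and 5.81 under DMSO and at 14.6 and 12.1 under GSK126. In both lines the treated arrays were above the control arrays, yet all 4 lay below the array median. With a pseudocount of 1 the Pfeiffer change was called (0.76, limma adjusted p 0.0278).

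S100A6, a nearby relative that binds the calcyclin-binding protein, rose in 2 lines that also raised S100A4. The WSU-DLCL2 arrays gave S100A6 signals of 112 and 130.2 for DMSO and 684 and 546 for GSK126. In KARPAS-422, S100A6 signals were 9.48 and 83.3 with DMSO and 257 and 233 with GSK126. The changes were 2.19 ± 0.48 and 2.32 ± 0.48 in WSU-DLCL2 and KARPAS-422 (limma adjusted p 0.00095 and 0.000425). The 2 control arrays of KARPAS-422 were far apart: without the lower of them, DMSO replicate 1, the change fell to 1.38 with an adjusted p of 0.0516. SU-DHL-10 read S100A6 at 7.62 and 14.1 under DMSO and at 17.6 and 77.9 under GSK126, and this difference of 1.03 ± 0.48 was not called (limma adjusted p 0.151). It was called at 1.75 (limma adjusted p 0.0342) without GSK126 replicate 1, and all 4 S100A6 arrays of this line lay below the array median.

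On the DMSO arrays, the brightest S100A6 levels belonged to 2 wild type lines, OCI-LY-19 and Toledo. The OCI-LY-19 arrays gave S100A6 signals of 334 and 301 for DMSO and 462 and 418 for GSK126. In Toledo, S100A6 signals were 274 and 199 with DMSO and 293 and 260.1 with GSK126. The arrays of OCI-LY-19 did not overlap (0.45 ± 0.48), those of Toledo did (0.22 ± 0.48), and neither line was called. In Pfeiffer the treated arrays straddled the controls. Pfeiffer read S100A6 at 153 and 108 under DMSO and at 135 and 318 under GSK126. Besides SU-DHL-10, the lines DB, HT, SU-DHL-4 and SU-DHL-6 had every array below the array median, with signals from 2.22 in DB to 55.2 in SU-DHL-6 and changes from -0.63 to 0.82. The standard error of 0.48 is the widest of the 5 tested members. A further S100A6 probe set lay above the array median on 0 arrays, had no correlation with the first (r = 0.07 over 40 arrays), and gave -0.15 in WSU-DLCL2 and -0.02 in KARPAS-422.

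S100A10, the partner of annexin A2, rose in Pfeiffer, WSU-DLCL2 and KARPAS-422 in the main fit. The Pfeiffer arrays gave S100A10 signals of 214 and 304 for DMSO and 642 and 685 for GSK126. In WSU-DLCL2, S100A10 signals were 320.2 and 377 with DMSO and 1609 and 1428 with GSK126. KARPAS-422 read S100A10 at 173 and 215 under DMSO and at 366 and 419 under GSK126. Treated and control arrays were apart in all 3 lines. The log2 fold changes were 1.32 ± 0.30, 2.07 ± 0.30 and 0.96 ± 0.30 in that order (limma adjusted p 0.00166, 6.12e-06 and 0.0174). The KARPAS-422 call was lost without DMSO replicate 1 (adjusted p 0.132) or GSK126 replicate 2 (adjusted p 0.109). It was also lost with quantile normalization (limma adjusted p 0.0933). With the mean of the probe sets the calls in KARPAS-422 (limma adjusted p 0.215) and Pfeiffer (limma adjusted p 0.0524) were both lost.

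The remaining lines gave no call for S100A10, although the 2 treated arrays were above the 2 control arrays in 5 of them. The DB arrays gave S100A10 signals of 330.3 and 307 for DMSO and 523 and 779 for GSK126, a change of 0.97 ± 0.30 that missed the threshold (limma adjusted p 0.0878). With a pseudocount of 64 the DB change was called (0.88, limma adjusted p 0.0156). The KARPAS-422 change minus that in DB was -0.01 ± 0.43 (limma adjusted p 0.993). In SU-DHL-6, S100A10 signals were 11672 and 10878 with DMSO and 19546 and 15730 with GSK126. These were the highest S100A10 values of the series, and the change of 0.64 ± 0.30 was not called (limma adjusted p 0.205). SU-DHL-10 read S100A10 at 196 and 129.5 under DMSO and at 181 and 132 under GSK126, and in this line alone the change was below 0 (-0.04 ± 0.30). The HT arrays gave S100A10 signals of 47.5 and 30.4 for DMSO and 31.3 and 97.6 for GSK126. In OCI-LY-19, S100A10 signals were 30.5 and 20.8 with DMSO and 31.4 and 83.8 with GSK126. Both lines were dim, and in each 1 treated array stood well above the other three arrays. SU-DHL-4 and Toledo gave differences of 0.64 ± 0.30 and 0.28 ± 0.30, with no overlap and no call. A second, dimmer S100A10 probe set lay above the array median on 4 of the 40 arrays and correlated with the first at r = 0.82. It was by far brightest in SU-DHL-6, and how much of r rests on that line was not tested. The order of the other lines was not the same: under DMSO, WSU-DLCL2 read above SU-DHL-10 with the first set and below it with the second. The second set was called in WSU-DLCL2 (1.29 ± 0.41), at a mean signal of 57.2 under GSK126, where array medians were 80.8 and 80.9. It gave only 0.27 ± 0.41 in Pfeiffer and 0.10 ± 0.41 in KARPAS-422, neither called.

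S100A11, the annexin A1 partner next door to S100A10, rose in Pfeiffer, KARPAS-422 and SU-DHL-4. Pfeiffer read S100A11 at 11.7 and 37.5 under DMSO and at 72.5 and 97.6 under GSK126. The KARPAS-422 arrays gave S100A11 signals of 671 and 654 for DMSO and 1146 and 1307 for GSK126. In SU-DHL-4, S100A11 signals were 13.5 and 14.4 with DMSO and 33.8 and 48.2 with GSK126. Pfeiffer and SU-DHL-4 had the lowest S100A11 of the 10 lines, and KARPAS-422 had a level like that of most others. The changes were 1.34 ± 0.20 in Pfeiffer, 0.87 ± 0.20 in KARPAS-422 and 0.88 ± 0.20 in SU-DHL-4 (limma adjusted p 6.24e-06, 0.000989 and 0.00874). Without DMSO replicate 1 the Pfeiffer change was 0.89 and still called (limma adjusted p 0.00108), while SU-DHL-4 lost its call without DMSO replicate 1, DMSO replicate 2 or GSK126 replicate 2 (adjusted p 0.0581, 0.0723 and 0.204). Fitted alone, neither line was called (limma adjusted p 0.0558 in Pfeiffer and 0.283 in SU-DHL-4). WSU-DLCL2 read S100A11 at 681 and 641 under DMSO and at 607 and 585 under GSK126. Here the treated arrays were the lower ones, by a difference of -0.14 ± 0.20 that was not called. The other 6 lines ranged from -0.04 in OCI-LY-19 to 0.39 in DB.

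S100A13, linked to release of growth factors, was above control in more lines than any other tested member. Its 2 treated arrays were above its 2 control arrays in all 10 lines, and 7 lines were called. The SU-DHL-10 arrays gave S100A13 signals of 246 and 304 for DMSO and 586 and 665 for GSK126. In HT, S100A13 signals were 324 and 319 with DMSO and 680.2 and 586 with GSK126. SU-DHL-6 read S100A13 at 276 and 263 under DMSO and at 548 and 480.0 under GSK126. These were the 3 lines with the lowest control level, and they had the largest changes, 1.14 ± 0.10, 0.94 ± 0.10 and 0.88 ± 0.10 (limma adjusted p 6.04e-10, 1.02e-07 and 1.80e-07). In the main fit, HT was the only wild type line in which any of the 7 members was called.

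The WSU-DLCL2 arrays gave S100A13 signals of 646 and 664 for DMSO and 1165 and 1159.6 for GSK126. In KARPAS-422, S100A13 signals were 1112 and 1268 with DMSO and 1900.4 and 2079 with GSK126. Pfeiffer read S100A13 at 626 and 639.6 under DMSO and at 1006 and 1090.3 under GSK126. The changes were of like size, 0.81 ± 0.10, 0.73 ± 0.10 and 0.71 ± 0.10, and were each called in limma. The SU-DHL-4 arrays gave S100A13 signals of 914 and 803 for DMSO and 1127 and 1133 for GSK126, a change of 0.39 ± 0.10 (limma adjusted p 0.0184) that was lost without DMSO replicate 2 (adjusted p 0.332), GSK126 replicate 1 (0.108) or GSK126 replicate 2 (0.135), and when the line was fitted alone (0.0982). OCI-LY-19, Toledo and DB were not called. In OCI-LY-19, S100A13 signals were 2080.0 and 2101 with DMSO and 2502 and 2538 with GSK126. Toledo read S100A13 at 487 and 465 under DMSO and at 542 and 553 under GSK126. The DB arrays gave S100A13 signals of 1123 and 1147 for DMSO and 1232 and 1189 for GSK126. In these lines the gaps were narrow, 0.27 ± 0.10, 0.20 ± 0.10 and 0.09 ± 0.10, though the arrays did not overlap. Of all genes tested, 0.664% rose in at least 7 lines and 1.32% in at least 6.

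The rise of S100A13 was not seen with its other probe set. That set lay above the array median on all 40 arrays, with signals from 133 to 319, and correlated negatively with the first (r = -0.27). It was called in 0 of 10 lines, with changes from -0.29 ± 0.18 in DB to 0.35 ± 0.18 in SU-DHL-6, and it gave -0.28 ± 0.18 in SU-DHL-10, where the first rose most. Which transcripts each set reads was not tested. Statements on S100A13 therefore hold for the brighter probe set alone. S100A4, S100A9 and S100A11 had 1 probe set each.

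**Figure D2:**
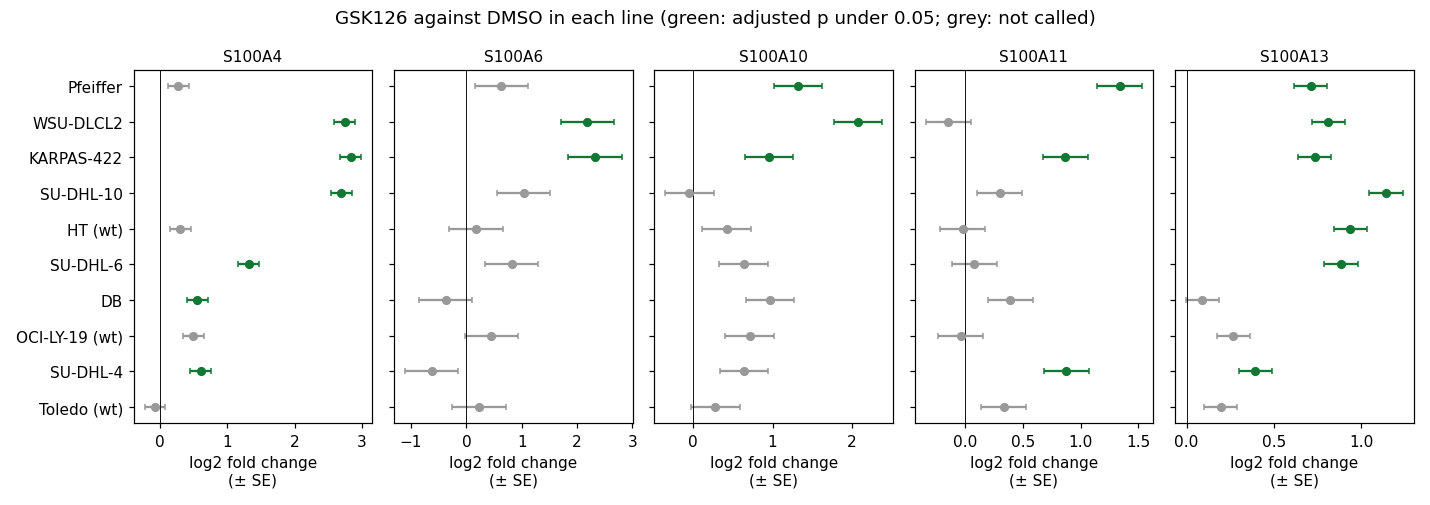
Log2 fold change of GSK126 against DMSO (x axis, ± SE) for each tested S100 gene in each of the 10 lines (y axis), green where the adjusted p was under 0.05. S100A4 reaches 2.83 in KARPAS-422, and S100A13 lies to the right of 0 in all 10 lines.

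**Figure D3:**
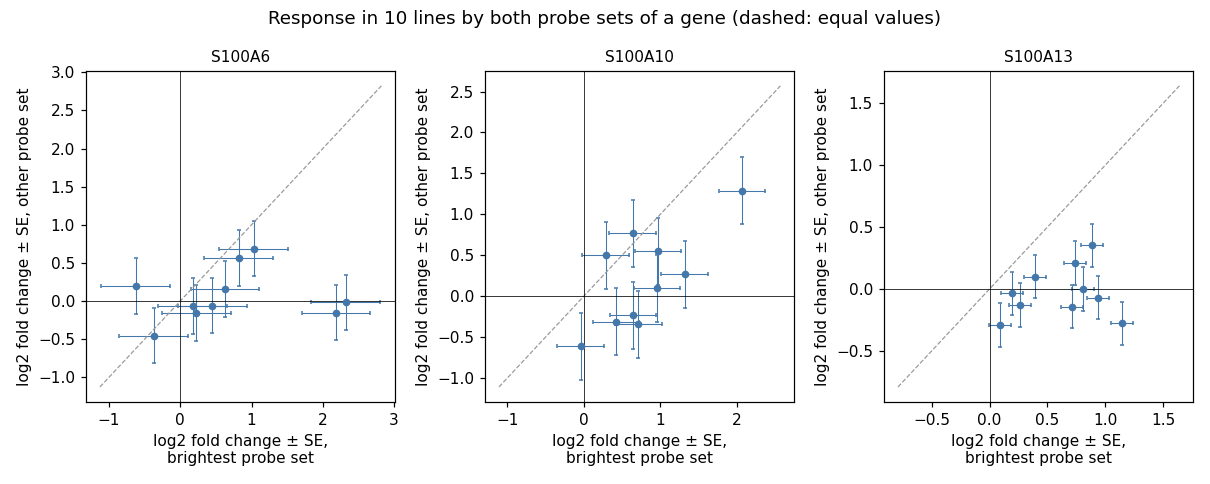
Response in the 10 lines by the brightest probe set (x axis) and by the other probe set (y axis) of S100A6, S100A10 and S100A13, as log2 fold change ± SE; the dashed line marks equal values. Points of S100A13 lie below the dashed line in all 10 lines, and the other set was called in 0 of them.

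S100A8 and S100A9, the calprotectin pair, stayed dim in every line. S100A8 signals ran from 11.4 to 84.8 over the 40 arrays and were above the array median on 1 array only, a DMSO array of HT at 71.0. The largest shift was in WSU-DLCL2. In WSU-DLCL2, S100A8 signals were 18.9 and 39.1 with DMSO and 62.1 and 60.2 with GSK126, a difference of 0.79 that was not called when the filter was dropped (SE 0.36, limma adjusted p 0.138). S100A9 signals ran from 1.90 to 12.3, and its changes from -0.15 to 0.30 were likewise not called without the filter. These values allow no order among the lines.

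Markers of myeloid cells, which normally carry calprotectin, were also read. The summed signal of 14 myeloid marker genes ranged from 535 to 3190 on DMSO arrays and from 515 to 3029 on GSK126 arrays, and the highest sums were in HT, with a DMSO mean of 3099 against 595 to 930 in the other lines. CD14, MPO and ELANE were above the median on 0 arrays, but CEBPE was on 39, CSF3R on 31, ITGAM on 23, CLEC7A on 22 and VCAN on 20. The sum over 7 B cell genes ranged from 21250 to 61261 on DMSO arrays and from 22807 to 67309 on GSK126 arrays. The myeloid sum moved from 930 to 1636 on average in Pfeiffer, where VCAN rose by 1.71, and from 707 to 601 in KARPAS-422, where ITGAM fell by 1.51. Lysozyme (LYZ), above the median on 2 arrays, rose in SU-DHL-10 (1.54 ± 0.45). Markers of stromal and epithelial cells summed to between 558 and 15907 under DMSO and between 683 and 21966 under GSK126, highest in KARPAS-422 and Pfeiffer. COL3A1, LUM, KRT19 and CDH1 were above the median on 0 arrays, while COL1A1 was on 40, DCN on 39, KRT8 on 34 and COL1A2 on 14. Decorin (DCN), a matrix gene picked after its values were seen, rose in WSU-DLCL2 (0.91 ± 0.13), Pfeiffer (0.87 ± 0.13) and KARPAS-422 (0.38 ± 0.13). In each of these lines it was the only gene called of 6 tested in its list. The list medians there were -0.04, -0.02 and 0.40. The stromal and epithelial sum fell from 13455 to 10670 on average in Pfeiffer. It rose from 2767 to 4660 in WSU-DLCL2 and from 15720 to 20406 in KARPAS-422. Sums over 12 T and NK cell markers ranged from 262 to 13397 under DMSO and from 353 to 16002 under GSK126. The highest were in Pfeiffer and KARPAS-422, with DMSO means of 13267 and 9212. NKG7, GNLY, GZMK and TRAT1 were above the median on 0 arrays, CD3E on 36 and IL7R on 12, and CD5, which some B cells carry, rose in SU-DHL-6 (1.43 ± 0.35). For 7 keratinocyte genes, cells in which several S100 proteins are abundant, the sums were 3331 to 7178 and 2817 to 7195, with KRT14, FLG and SPRR1B above the median on 0 arrays and KRT10 on 40. The part of these markers in the S100 results was not tested.

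The lines differed in response for each of the 5 tested genes. The test asked whether the 10 changes are equal (F test in limma, Benjamini-Hochberg adjusted over all genes), and 38.8% of all genes passed it. F was 54.7 for S100A4 (adjusted p 1.43e-12), 13.9 for S100A13 (1.09e-06), 6.13 for S100A11 (0.000715), 4.05 for S100A6 (0.00879) and 3.73 for S100A10 (0.0134). The S100A10 value was the least firm: it missed the threshold with a pseudocount of 1 (adjusted p 0.0840) and without DMSO replicate 1 (0.0564) or GSK126 replicate 1 (0.0544) of WSU-DLCL2. Of the 45 pairs of lines, the response differed in 26 for S100A4, 24 for S100A13, 11 for S100A11, 7 for S100A6 and 7 for S100A10, where 9.43% of all genes' pairs did.

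Line by line, the members did not respond as a set. WSU-DLCL2 raised S100A10 more than SU-DHL-10 did, by 2.11 ± 0.43 (limma adjusted p 0.00120), while the S100A4 change differed between them by 0.05 ± 0.22 (limma adjusted p 0.927). For S100A11 the change in WSU-DLCL2 minus that in KARPAS-422 was -1.01 ± 0.28, so KARPAS-422 raised it more (limma adjusted p 0.00809). The same difference was -0.09 ± 0.22 for S100A4 and -0.14 ± 0.68 for S100A6, neither called. Over the 10 log2 fold changes, S100A4 correlated with S100A6 at r = 0.82 and with S100A13 at 0.60, S100A6 with S100A13 at 0.54 and with S100A10 at 0.45. S100A11 lay between -0.13 and 0.06 with each other member. These are descriptions over 10 lines that share arrays between genes. The value of 0.06 is that of the neighbours S100A10 and S100A11.

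With the line as the unit, the mean response of the 7 mutant lines was above 0 for S100A4 (1.57 ± 0.33, limma adjusted p 0.0278), S100A10 (0.94 ± 0.19, adjusted p 0.0257) and S100A13 (0.68 ± 0.13, adjusted p 0.0179), and 4.52% of all genes were called higher (25.1% had an unadjusted p under 0.05 in either direction). The change was positive in 7 of 7 mutant lines for S100A4 and S100A13 and in 6 of 7 for S100A10. S100A6 (0.85 ± 0.33, adjusted p 0.137, limma) and S100A11 (0.53 ± 0.16, adjusted p 0.0724, limma) were not called. The calls rest on few lines. S100A4 was lost without any of WSU-DLCL2, KARPAS-422, SU-DHL-10 or SU-DHL-6 (adjusted p 0.0577 to 0.0733), S100A10 without Pfeiffer, KARPAS-422 or SU-DHL-6 (0.0504 to 0.0664) and S100A13 without WSU-DLCL2 (0.0522), so that 1 gene was left without WSU-DLCL2, KARPAS-422 or SU-DHL-6. As the mean of its probe sets, S100A10 was not called (0.62, limma adjusted p 0.0644).

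In the 3 wild type lines 0 genes were called by limma, in either direction, out of all 15211, while 670 (4.4%) had an unadjusted p under 0.05. S100A13 had a mean of 0.47 ± 0.19 there (unadjusted p 0.0350, adjusted 1.00), positive in 3 of 3 lines, S100A10 0.47 ± 0.30, S100A6 0.28 ± 0.50, S100A4 0.24 ± 0.51 and S100A11 0.09 ± 0.24. The difference between genotypes was likewise called for 0 genes, with 631 (4.15%) at an unadjusted p under 0.05. It was 1.33 ± 0.61 for S100A4, mutant lines higher (unadjusted p 0.0528, limma adjusted p 0.996), 0.57 ± 0.60 for S100A6, 0.46 ± 0.36 for S100A10, 0.44 ± 0.29 for S100A11 and 0.21 ± 0.23 for S100A13. A difference between mutant and wild type lines was therefore not detectable for these genes with 7 and 3 lines.

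The descriptions of the arrays carry an R tag with a value of 6, 7 or 8, whose meaning the labels do not give, and each value holds lines of both genotypes. Mutant minus wild type for S100A4 was 1.63 in tag 6, 1.35 in tag 7 and 0.82 in tag 8. For S100A13 it was 0.53, -0.33 and 0.62 in the same order, so its sign turned within tag 7, where HT is the wild type line. S100A10 gave 0.85, 0.49 and -0.08, S100A6 gave 1.25, 0.38 and 0.37, and S100A11 gave 0.77, 0.37 and 0.12. The slope of the response on log10 of the growth IC50 was called for 0 of the 5 genes (limma; 0 had an unadjusted p under 0.05), against 1 gene (0.00657%) of all tested, with 1457 (9.58%) at an unadjusted p under 0.05. The slopes of the members ran from -0.71 ± 0.34 per unit of log10 IC50 for S100A6 to -0.16 ± 0.20 for S100A11. How many of all genes had a negative slope was not counted, so the shared sign is not read as a trait of these genes.

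Under DMSO the members spread widely over the lines. Between the highest and the lowest line the mean DMSO level differed by 262 times for S100A10, 117 times for S100A4, 48.7 times for S100A11, 13.3 times for S100A6 and 7.34 times for S100A13 on the offset scale. Neighbours in the order of DMSO levels were compared in limma, and 19 of 45 neighbouring pairs differed. Over all genes 52.4% of pairs differed for the same line pairs. Those lines need not be neighbours in the order of another gene, so the shares are not alike. The same order held on both replicate arrays in 30 of 45 pairs, and in all 19 that differed. These are the arrays whose mean set the order, so the agreement is no separate check of it.

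S100A4 had the clearest order: SU-DHL-4, DB, Toledo, OCI-LY-19, WSU-DLCL2, SU-DHL-10, KARPAS-422, HT, SU-DHL-6 and Pfeiffer. Each step down to KARPAS-422 was beyond the spread, the widest from SU-DHL-10 to KARPAS-422 (3.53 ± 0.16), and the steps among the last 4 lines were not called. S100A10 ran from SU-DHL-6 over Toledo, WSU-DLCL2, DB, Pfeiffer, KARPAS-422, SU-DHL-10, SU-DHL-4 and HT to OCI-LY-19. The steps from SU-DHL-6 to Toledo (3.63 ± 0.30), from Toledo to WSU-DLCL2 (1.32 ± 0.30) and from SU-DHL-4 to HT (1.20 ± 0.30) were called, and the others were not. S100A11 was highest in DB, then SU-DHL-10, OCI-LY-19, KARPAS-422, WSU-DLCL2, SU-DHL-6, Toledo, HT, Pfeiffer and SU-DHL-4, with called steps after SU-DHL-10, DB, SU-DHL-6 and HT, that after HT being 3.16 ± 0.20. S100A13 ran OCI-LY-19, KARPAS-422, DB, SU-DHL-4, WSU-DLCL2, Pfeiffer, Toledo, HT, SU-DHL-10 and, last, SU-DHL-6, and the steps after OCI-LY-19, DB, SU-DHL-4, Pfeiffer and Toledo were called. For S100A6 the order was OCI-LY-19, Toledo, Pfeiffer, WSU-DLCL2, KARPAS-422, SU-DHL-4, DB, SU-DHL-10, SU-DHL-6 and, last, HT, and the single called step was from WSU-DLCL2 to KARPAS-422 (1.40 ± 0.48). The DMSO level of mutant against wild type lines was called for 0 of the 5 genes (limma), and 0 had an unadjusted p under 0.05. The largest difference was 1.64 ± 1.37 for S100A10, mutant lines higher (limma adjusted p 0.820), and of all genes tested 4 were called higher and 4 lower (0.0263% each), with 7.75% at an unadjusted p under 0.05.

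Of 14 other genes of the family and its binding protein, 6 were tested. S100A1, the next gene after S100A13 on the chromosome, rose in HT (1.67 ± 0.32), WSU-DLCL2 (1.38 ± 0.32) and SU-DHL-10 (1.28 ± 0.32), where S100A13 rose as well. In KARPAS-422, where S100A13 rose, S100A1 had 0.03 ± 0.32 and was not called. S100PBP, a nuclear protein that binds S100P and was picked after its values were seen, fell in HT (-0.27 ± 0.08) and KARPAS-422 (-0.23 ± 0.08). S100A14, on the other side of S100A13, was called in 0 lines. The genes flanking S100A4 and S100A6, namely S100A3, S100A5 and S100A7, were too dim to be tested. THEM4, which flanks S100A10, changed by 0.53 in SU-DHL-6 (limma adjusted p 0.0342) and was not called in the other lines.

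Binding partners and targets of S100 proteins were listed as 21 genes, of which 18 were tested. In Pfeiffer 4 rose and 2 fell, in KARPAS-422 3 rose and 4 fell, in SU-DHL-6 2 rose and 3 fell, in SU-DHL-10 2 rose and 0 fell, in WSU-DLCL2 1 rose and 2 fell, in HT 1 rose, and in the other lines 0 were called. The medians of the list lay between -0.07 and 0.12 in the 10 lines. ANXA2, whose protein holds S100A10, rose in 6 lines. Its mean signal went from 562 to 1388 in WSU-DLCL2, from 274 to 586 in KARPAS-422 and from 1036 to 1903 in Pfeiffer, changes of 1.28 ± 0.11, 1.05 ± 0.11 and 0.87 ± 0.11. In SU-DHL-10 ANXA2 rose (0.77 ± 0.11) while S100A10 had -0.04, and in DB ANXA2 had -0.05 ± 0.11 while S100A10 had 0.97 ± 0.30.

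**Figure D4:**
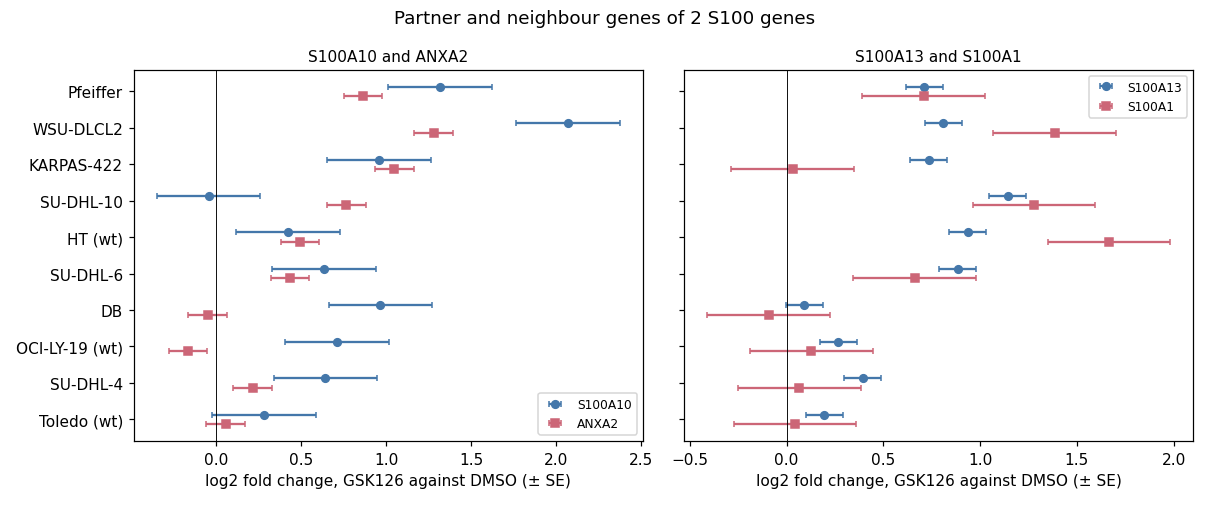
Log2 fold change of GSK126 against DMSO (± SE) in the 10 lines for S100A10 beside its partner ANXA2 (left) and for S100A13 beside its chromosomal neighbour S100A1 (right). ANXA2 rises in 6 lines, including SU-DHL-10 where S100A10 does not, and S100A1 stays near 0 in KARPAS-422 where S100A13 rises.

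Other partners moved in single lines. ANXA6, a membrane-binding annexin, rose in Pfeiffer by 2.08 ± 0.31. ANXA1, the S100A11 partner, rose in SU-DHL-6 by 1.49 ± 0.47 (limma adjusted p 0.0388), a line in which S100A11 had 0.08. ANXA1 was dim there, with mean signals of 11.3 under DMSO and 62.2 under GSK126, where array medians were 72.6 to 88.5. Cathepsin B (CTSB), a lysosomal protease, rose in SU-DHL-10 (1.10 ± 0.27) and Pfeiffer (0.89 ± 0.27), and the calcium channel TRPV5 in Pfeiffer (1.06 ± 0.36). Direct partners of S100A4 and S100A6 were picked after their values were seen. MYH9, a non-muscle myosin heavy chain, fell in WSU-DLCL2 (-0.39 ± 0.08), SU-DHL-6 (-0.34 ± 0.08) and KARPAS-422 (-0.22 ± 0.08) and was not called in the other 7 lines, with 0.14 ± 0.08 in SU-DHL-10. CACYBP, the calcyclin-binding protein, fell in KARPAS-422 (-0.71 ± 0.07), Pfeiffer (-0.31 ± 0.07) and SU-DHL-6 (-0.29 ± 0.07) and was not called in the other 7, with -0.06 ± 0.07 in WSU-DLCL2, where S100A6 rose.

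Receptors reported to bind secreted S100 proteins were listed as 11 genes, with 9 tested, and their medians lay between -0.13 and 0.12. In Pfeiffer 3 rose and 1 fell, in KARPAS-422 2 rose and 1 fell, in SU-DHL-10 0 rose and 2 fell, in WSU-DLCL2 0 rose and 1 fell, and in HT 1 rose. CD69, an early activation antigen, went from a mean signal of 264 to 8.50 in WSU-DLCL2 (-3.47 ± 0.40) and fell in SU-DHL-10 (-1.19 ± 0.40), but rose in Pfeiffer (1.46 ± 0.40). ALCAM, an adhesion molecule, rose in KARPAS-422 (1.73 ± 0.09) and HT (0.47 ± 0.09) and fell in SU-DHL-10 (-0.38 ± 0.09) and Pfeiffer (-0.29 ± 0.09). TLR4, the endotoxin receptor, rose in Pfeiffer (1.22 ± 0.36).

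Genes with the most similar response were named by Pearson's r over the 10 line changes, among tested genes with a change of at least 1 in any line, as a description. For S100A4 they were APLN, the precursor of apelin (r = 0.99), ENTPD6 (0.97) and ATL1 (0.94). APLN gave 2.22 in WSU-DLCL2, 2.17 in SU-DHL-10, 2.02 in KARPAS-422, 0.98 in SU-DHL-6 and 0.31 in Pfeiffer. S100A6 was nearest to SLC37A3 (0.92), TCL6 (0.91) and ENTPD6 (0.91). S100A10 went with WNT10A (0.94), SMIM14 (0.91) and PIEZO1 (0.89), and S100A11 with PRDM1 (0.91), PDE7A (0.88) and AFF1 (0.86). PRDM1, which encodes the plasma cell regulator BLIMP1, gave 2.77 in Pfeiffer, 1.51 in KARPAS-422, 1.20 in SU-DHL-4 and 0.20 in WSU-DLCL2. S100A13 was nearest to AIG1 (0.91), C1orf198 (0.89) and PDE8A (0.88), and AIG1 gave 1.91 in SU-DHL-6, 1.55 in HT and -0.12 in DB.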

How the data were processed

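RNA of 40 samples was hybridised to single-colour Affymetrix arrays. The deposited values are log2 signals of 54675 probe sets, made with MAS5 per the submitters' processing notes (version not given in the sources used here); brought back to linear, the mean trimmed by 2% at each end was 500 on each array. MAS5 treats each array by itself, and its values for dim probe sets are noisy after taking logs. Gene symbols came from the platform annotation. Values were analysed as log2(signal + 17.72), the offset being the median over arrays of the 25th percentile. In limma 3.58.1 (R 4.3.3) 20 group means were fitted with an intensity trend, and treated arrays were set against vehicle arrays line by line (20 residual and 6.98 prior degrees of freedom). Across lines, each line gave 1 value. Tests were two-sided, with Benjamini-Hochberg adjustment over the 15211 genes tested. The procedure was tested on simulated data. Replicate numbers did not pair the samples. The members and lists were chosen with earlier results of these data known. Genes named were all 7 members, at most 5 called genes per list with a change of at least 1, and 3 similar genes per member. Flanking genes and marker genes with their array counts were named as well. DCN, MYH9, CACYBP and S100PBP were added after their values were seen. Lists covered other S100 genes, partners, receptors, and markers of B, myeloid, T and NK, stromal and epithelial cells and keratinocytes. Alternatives are in the closing section. Promoters came from RefSeq (GRCh38.p14).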

Additional observations from a re-analysis of the deposited data

Results flagged for a closer look

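S100A10 under DMSO in SU-DHL-6 stood apart from the other mutant lines: its log2 level was 13.46 and the next mutant line, WSU-DLCL2, had 8.51. The gap was 0.768 of the whole range of the 7 mutant lines. The second S100A10 probe set was also highest in SU-DHL-6, at a mean signal of 334 under DMSO and 575 under GSK126, against 43.0 and 58.2 in Toledo.

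The 10 lines differed in their response for each tested member, with F of 54.7 for S100A4, 13.9 for S100A13, 6.13 for S100A11, 4.05 for S100A6 and 3.73 for S100A10. These were tests of the difference itself.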

How the results depend on the processing

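The count of S100 calls that rose was 18 to 22 with other pseudocounts, normalizations, filters or fits or the mean of probe sets, 10 with the other probe set of S100A6, S100A10 and S100A13, 17 to 22 with 1 array left out, and 0 fell throughout. Of 430 single results under other settings, 397 kept their direction and side of the threshold (an uncalled value that changed sign is counted here), 21 lost the call, 6 gained it and 6 turned. Those 6 came from the other probe set: S100A13 in Pfeiffer (-0.14), WSU-DLCL2 (-0.0025), SU-DHL-10 (-0.28) and HT (-0.0701), and S100A6 in WSU-DLCL2 (-0.15) and KARPAS-422 (-0.0193). That S100A6 set was above the array median on 0 arrays, so its turns cannot tell a missing rise from a dim set. S100A10 as the mean of its probe sets lost the mean of mutant lines (0.62, limma adjusted p 0.0644) and the call in Pfeiffer (0.79, adjusted p 0.0524). The members called in the mean of mutant lines fell from 3 to 1 without WSU-DLCL2, KARPAS-422 or SU-DHL-6, and the cause was not tested. Arrays set to equal medians moved the median change of all genes by -0.21 to 0.03, by over 0.1 in 6 lines. The S100A4 calls in DB and SU-DHL-4 were then lost (limma adjusted p 0.0678 and 0.0972), as was S100A13 in SU-DHL-4 (limma adjusted p 0.0528). Same-numbered arrays deviated together at -0.0446 to 0.0694, so the numbers do not pair them. The fit with a replicate block gave 21 rises, 0 falls and 5 F calls, and with the R tag as a block 0 members were called by genotype, slope or DMSO level. Signals under the array median on all 4 arrays limit S100A4 in Pfeiffer, HT and SU-DHL-6, S100A6 in 5 lines, S100A10 in OCI-LY-19, S100A11 in SU-DHL-4, S100A9 in all 10 lines and S100A8 in all but HT (3 of 4 arrays).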
